A study of Mus musculus with 16 samples.

Results

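The Ikaros zinc finger family of the mouse has 5 genes, Ikzf1 to Ikzf5, and all 5 were measured in a microarray study of dendritic cell (DC) progenitors. The probe sets chosen were those annotated to one of these symbols alone. There were 6 of them, 2 for Ikzf5 and 1 for each other gene, among 21789 probe sets with a single symbol (19938 genes) and 28188 in all. No probe set with several symbols held a family member. The arrays compared wild-type (WT) mice with IkL/L mice. IkL/L mice are homozygous for a hypomorphic Ikzf1 allele from which functional Ikaros protein is made at a reduced level. MDPs, the monocyte-dendritic progenitors, and CDPs, the common DC progenitors that follow them, successive bone marrow stages of DC development, were sorted from young adult mice of both genotypes. They were cultured for 24 h with 5 µM of a gamma-secretase inhibitor (GSI, Compound E), which blocks Notch receptor cleavage, or with its vehicle DMSO. Every culture also held WT bone marrow cells carrying CD45.1 and Flt3L-conditioned medium, and the CD45.2+ cells of interest were sorted out again before RNA was taken. MDP and CDP therefore name the cells that entered the culture, not the cells recovered from it. Genotype, stage and treatment gave 8 groups with 2 arrays each, and this number limits the precision of every value.

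Ikaros family proteins bind DNA through zinc fingers near their amino terminus and pair with each other through zinc fingers at their carboxyl terminus. Ikaros (Ikzf1) is required for lymphoid development and for plasmacytoid DCs (pDCs), and it recruits chromatin-remodelling and histone-deacetylating complexes. Helios (Ikzf2) is known from stem cells, T cell precursors and regulatory T cells. Aiolos (Ikzf3) acts in maturing B cells and in T cell subsets. Eos (Ikzf4) is a partner of Foxp3 in regulatory T cells, and Pegasus (Ikzf5) is the most divergent and most widely expressed relative. Because members can pair with each other and bind like sequences, the comparisons asked whether the transcripts of the relatives differ when Ikaros is reduced.

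The promoters of Ikzf1 are shown because it is the gene that carries the L allele. RefSeq promoter windows were given for Ikzf1 (2 windows) and Ikzf5 (1 window) and none for Ikzf2, Ikzf3 or Ikzf4. The 250 bases before the 2 annotated Ikzf1 starts on the plus strand of GRCm38.p6, chr11:11685675-11685924 and chr11:11689927-11690176, read 5′ to 3′ as follows, with capitals marking matches to GGGAA on either strand, the core of the sequence that Ikaros proteins bind.
Ikzf1 upstream start: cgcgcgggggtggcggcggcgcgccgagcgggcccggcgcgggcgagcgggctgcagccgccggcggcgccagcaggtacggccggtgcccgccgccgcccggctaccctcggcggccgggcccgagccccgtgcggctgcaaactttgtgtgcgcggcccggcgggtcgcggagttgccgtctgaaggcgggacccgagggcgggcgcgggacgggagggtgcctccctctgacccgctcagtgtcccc
Ikzf1 downstream start: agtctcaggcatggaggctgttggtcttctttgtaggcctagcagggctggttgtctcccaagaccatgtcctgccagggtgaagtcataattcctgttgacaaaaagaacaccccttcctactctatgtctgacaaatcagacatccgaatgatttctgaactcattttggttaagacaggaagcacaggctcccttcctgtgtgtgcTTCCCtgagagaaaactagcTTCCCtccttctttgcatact
The upstream window is 82.0% G and C and holds no match to GGGAA, whereas the downstream window is 47.6% G and C and holds 2 matches, both on the minus strand. GGGAA occurs in 56.2% of all 32851 windows of this length. The longer TGGGAA, which contains GGGAA, occurs in 21.6% of the windows and in none of the 3 family windows, and the Ikzf5 window holds 1 match to GGGAA. A match describes the letters only, and the absence of one says that these letters are not in this window.

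The values are log2 RMA signals, in which a difference of 1 is a 2-fold difference. The brightness of one probe set cannot be set against that of another, so levels are compared within each probe set. Over 1035 olfactory receptor probe sets, whose genes are mostly silent outside the nose, the 95th percentile of the mean signal was 4.27. The highest group mean of Ikzf3 (4.05) was below this level, and those of the other 5 probe sets were above it. Values of Ikzf3 are therefore near the signal of silent genes. Transcripts of receptors by which such progenitors are sorted were measured in the recovered cells. Csf1r ran from 9.62 to 10.77 in WT and from 10.19 to 10.88 in IkL/L, and Flt3 from 6.36 to 9.13 and from 6.59 to 9.60. Kit ran from 4.85 to 8.05 in WT and from 5.94 to 7.99 in IkL/L.

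Ikzf1 signal was lower in IkL/L than in WT cultures. In WT MDPs it was 8.97 and 9.09 with DMSO and 9.20 and 9.03 with GSI. In IkL/L MDPs it was 8.55 and 8.85 with DMSO and 8.52 and 8.36 with GSI. All 4 IkL/L MDP arrays were below all 4 WT MDP arrays. In WT CDPs the signal was 8.91 and 8.95 with DMSO and 8.90 and 9.15 with GSI. In IkL/L CDPs it was 8.62 and 8.94 with DMSO and 8.58 and 8.59 with GSI. A single IkL/L CDP array, with DMSO, lay among the WT values, and the other 3 were below them.

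Over the 4 combinations of stage and treatment, Ikzf1 fell by 0.40 on the log2 scale (SE 0.07; 95% interval -0.55 to -0.25; limma adjusted p = 0.00701), which left 75.8% of the WT signal. The mean was 8.63 ± 0.18 in IkL/L and 9.02 ± 0.11 in WT (SD, n = 8 each). It was lower in 4 of 4 combinations. An exact two-sided permutation test that exchanged genotypes within them gave p = 0.00309, where 0.00154 is the smallest p possible. Both limma and this test, here and below, treat the arrays as independent, and the labels do not say which arrays share a mouse. If the same mice supplied several combinations, these genotype p values are too small. Ikzf1 was the only probe set of 6 called in this comparison, in which limma called 5.81% of all probe sets. The bulk signal cannot tell fewer expressing cells from less RNA per cell. Which exons this probe set reads and which part of the transcript the L allele alters are stated in none of the sources read for this work, and the signal is therefore no check of the genotype labels.

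**Figure D1:**
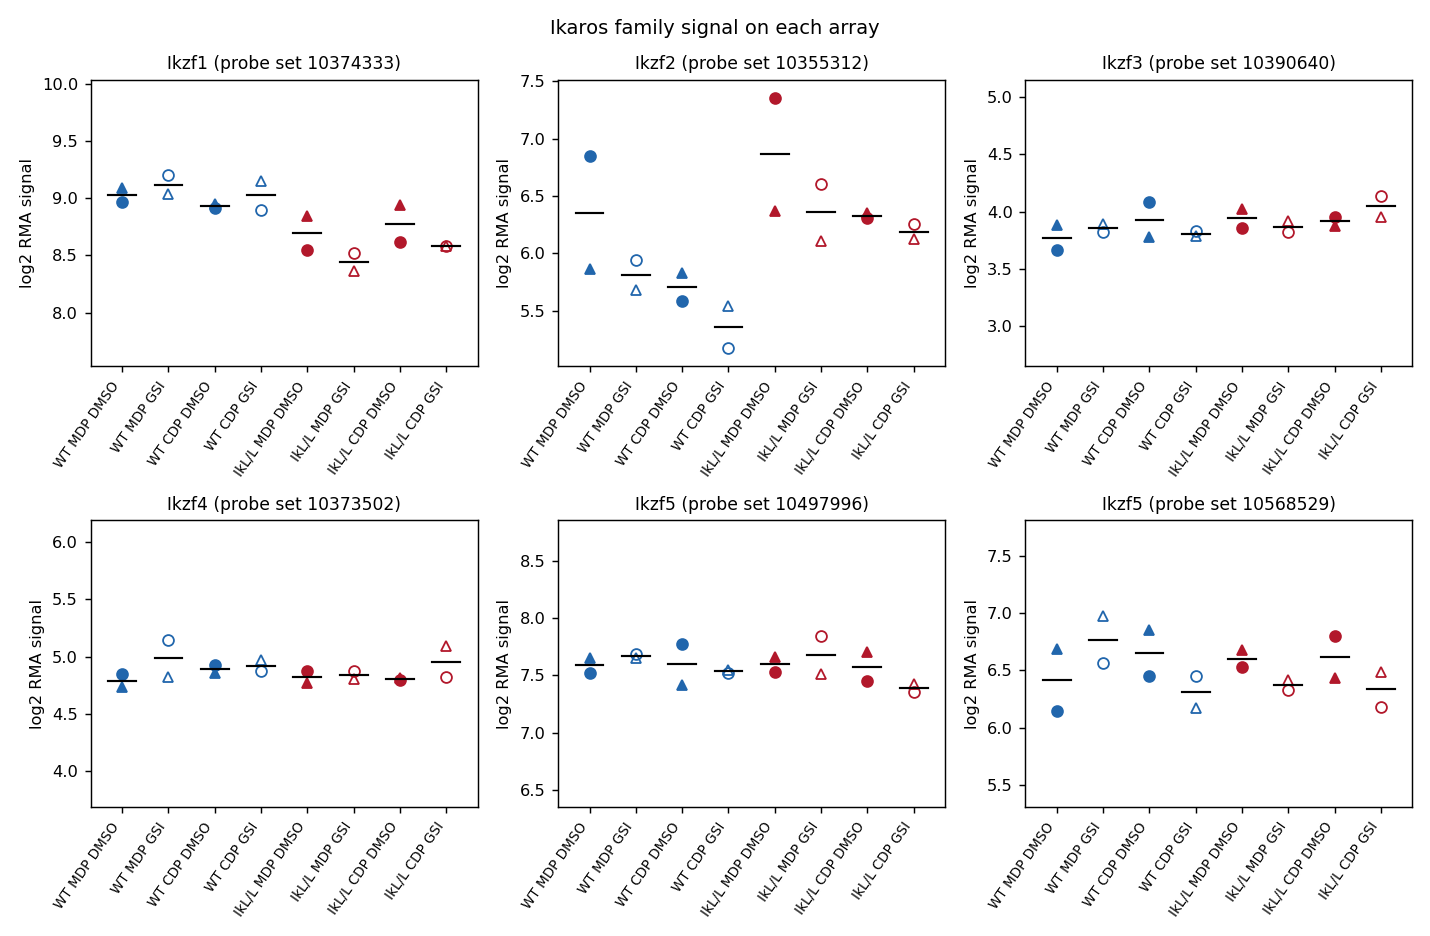
Log2 RMA signal (y axis, each panel spanning 2.5 log2 units) of the 6 family probe sets on the 16 arrays, by group (x axis); blue is WT, red is IkL/L, filled symbols are DMSO, open symbols are GSI, circles and triangles are replicates 1 and 2, and bars are group means. Ikzf1 sits lower and Ikzf2 higher in most IkL/L groups, while the Ikzf3, Ikzf4 and Ikzf5 genotypes intermingle.

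Within single combinations the Ikzf1 difference ran from -0.15 to -0.68. It was -0.33 (SE 0.14, n = 2 per group) in MDPs with DMSO, a comparison in which limma called 0.0918% of probe sets. It was -0.68 in MDPs with GSI (0.11% called), -0.15 in CDPs with DMSO (1.13% called) and -0.44 in CDPs with GSI (2.09% called), each with the same SE. None of these passed the test, with limma adjusted p values of 1, 0.168, 0.897 and 0.188 in that order. The Ikzf1 arrays did not overlap between genotypes in 3 of the 4 combinations. With only 2 arrays a side this was common, since it held for 29.9% of all probe sets in MDPs with DMSO, 35.4% in MDPs with GSI, 38.8% in CDPs with DMSO and 37.2% in CDPs with GSI.

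The Ikzf1 difference between genotypes was larger with GSI than with DMSO by 0.32 on the log2 scale (95% interval -0.62 to -0.02). It did not pass the correction (limma adjusted p = 1), and no probe set did (0% called). It was smaller in CDPs than in MDPs by 0.21 (95% interval -0.09 to 0.51, limma adjusted p = 0.986), in a comparison where 0.574% of probe sets were called. Averaged over treatments, a contrast added after the data were seen, Ikzf1 fell by 0.50 in MDPs (limma adjusted p = 0.0587) and by 0.30 in CDPs (limma adjusted p = 0.135). Limma called 0.551% and 5.02% of probe sets in these 2 contrasts. All 4 IkL/L MDP values lay below the 4 WT values, as for 2.33% of probe sets in that direction.

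Ikzf2, which encodes Helios, had a higher signal in IkL/L cultures by an amount that missed the threshold. In WT MDPs its signal was 6.85 and 5.86 with DMSO and 5.94 and 5.68 with GSI. In IkL/L MDPs it was 7.36 and 6.37 with DMSO and 6.60 and 6.11 with GSI. The first DMSO array of each genotype stood high, by 0.99 in WT and 0.98 in IkL/L over the second, and the WT and IkL/L MDP values overlapped. In WT CDPs the signal was 5.58 and 5.83 with DMSO and 5.17 and 5.54 with GSI. In IkL/L CDPs it was 6.30 and 6.35 with DMSO and 6.25 and 6.13 with GSI. All 4 IkL/L CDP arrays were above all 4 WT CDP arrays.

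The mean Ikzf2 difference was 0.63 on the log2 scale (SE 0.17; 95% interval 0.24 to 1.02), which is 1.54-fold. The limma adjusted p was 0.0688. The means were 6.43 ± 0.40 in IkL/L and 5.81 ± 0.48 in WT (SD, n = 8 each). IkL/L was higher in 4 of 4 combinations, by 0.51, 0.55, 0.62 and 0.83 in the order MDP with DMSO, MDP with GSI, CDP with DMSO and CDP with GSI. An exact two-sided permutation test within combinations gave p = 0.00617 for this probe set taken alone, with the arrays again treated as independent. Ikzf2 passed under 6 of 25 alternatives and missed the threshold under the other 19, with limma adjusted p values from 0.0198 to 0.157 over all 25. The 6 were the replicate number as a block, a filter on low values, a robust and trended variance estimate, leaving out WT MDP DMSO replicate 1 (0.0257) or IkL/L MDP DMSO replicate 2 (0.0257), and leaving out both DMSO MDP arrays of replicate 1, which was added after the data were seen (0.0198).

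Within CDPs, averaged over treatments, the Ikzf2 difference was 0.73 (1.66-fold; 6.26 ± 0.10 against 5.53 ± 0.27, SD, n = 4 each; limma adjusted p = 0.157). Its CDP arrays did not overlap with IkL/L higher, which held for 5.34% of probe sets, and 5.79% did not overlap with IkL/L lower. Within MDPs the difference was 0.53 (1.44-fold; limma adjusted p = 0.596), and the arrays overlapped, while 3.69% of probe sets did not overlap with IkL/L higher. The differences in CDPs and MDPs were not shown to differ (0.20, 95% interval -0.58 to 0.98, limma adjusted p = 1).

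**Figure D2:**
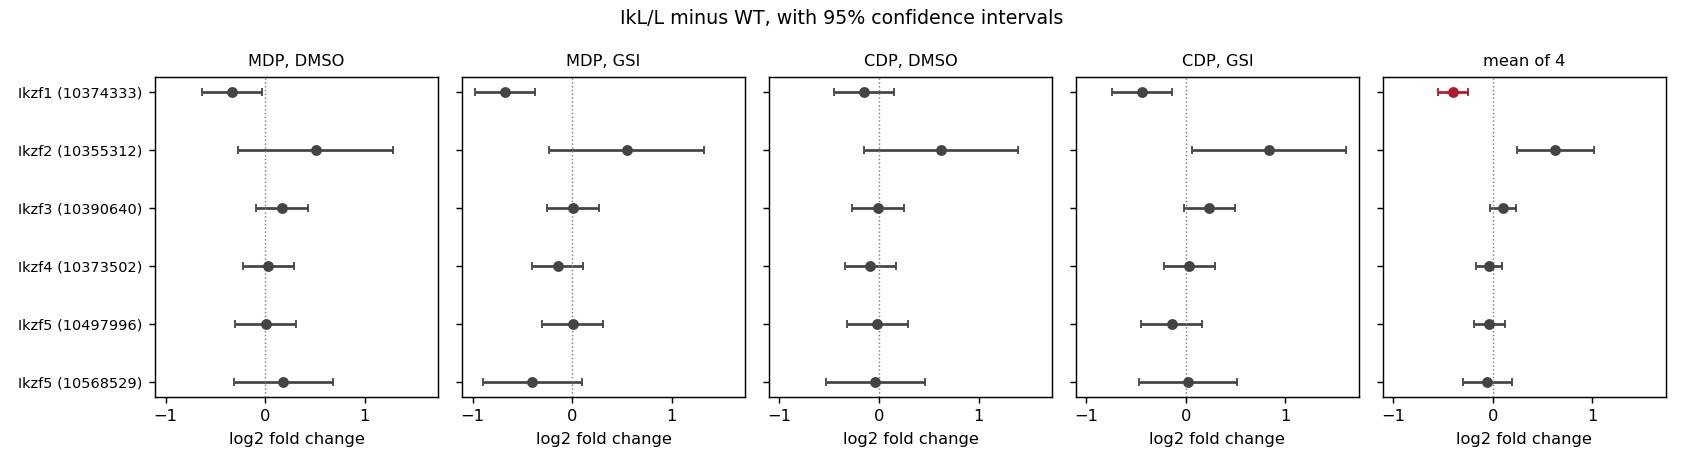
Log2 fold change of IkL/L over WT (x axis) for each family probe set (rows, probe set identifier in parentheses) in the 4 combinations of stage and treatment and in their mean; points are limma estimates, bars are 95% confidence intervals, and red marks an adjusted p under 0.05. In the mean the Ikzf1 estimate of -0.40 is the single value marked red, and the Ikzf2 estimate of 0.63 has an interval above 0 without passing the correction over all probe sets.

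Ikzf3, Ikzf4 and Ikzf5 showed no called difference between genotypes. Ikzf3 signal ran from 3.66 to 4.08 in WT (median 3.83) and from 3.83 to 4.14 in IkL/L (median 3.93). Its mean difference was 0.10 (limma adjusted p = 0.419). The 2 genotypes overlapped over most of this range, which lies near the signal of silent genes.

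Ikzf4 signal ran from 4.73 to 5.15 in WT (median 4.87) and from 4.77 to 5.09 in IkL/L (median 4.82). Its mean difference was -0.04 (limma adjusted p = 0.774), and the ranges were almost the same.

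Ikzf5 was read by 2 probe sets. Probe set 10568529 ran from 6.14 to 6.97 in WT (median 6.51) and from 6.18 to 6.80 in IkL/L (median 6.46), a mean difference of -0.06 (limma adjusted p = 0.847). Probe set 10497996 ran from 7.42 to 7.77 in WT (median 7.60) and from 7.36 to 7.85 in IkL/L (median 7.52), a mean difference of -0.04 (limma adjusted p = 0.841). Both sets of arrays overlapped widely.

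The 95% intervals of the 4 mean differences of these 3 genes lay between -0.31 and 0.23 on the log2 scale, so the arrays bound the mean difference but do not show that the genotypes are equal. In the single combinations their 16 differences ran from -0.40 to 0.24, and 0 had an unadjusted limma p under 0.05.

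The 2 Ikzf5 probe sets did not follow each other (r = 0.05 over the 16 arrays, given as a description). Identifiers on this array follow gene order for most of the family, and the 4 nearest named identifiers around 10568529, 2 on each side, belong to genes of chromosome 7, where Ikzf5 lies. Those around 10497996 (Sclt1, Pabpc4l, 1700018B24Rik and Pcdh18) belong to genes of chromosome 3. Which locus 10497996 reads is therefore uncertain, and 10568529 is the probe set to follow for Ikzf5.

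None of the 6 probe sets passed the limma test between stages, and Ikzf2 alone had an unadjusted p under 0.05. Ikzf2 showed the largest stage difference of the family, with CDP cultures lower than MDP cultures by a mean difference of -0.45 (95% interval -0.84 to -0.06; limma adjusted p = 0.172, 8.36% of probe sets called). CDP was lower in 4 of 4 combinations of genotype and treatment, and the exact two-sided permutation test for this probe set alone gave p = 0.0139. With DMSO the Ikzf2 stage difference was -0.65 in WT (0.0826% called) and -0.54 in IkL/L (1.66% called), and the arrays of the 2 stages did not overlap in either, as for 29% and 41.9% of all probe sets. Without both DMSO MDP arrays of replicate 1 the mean stage difference of Ikzf2 was -0.20 (limma adjusted p = 0.367).

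The mean stage difference of Ikzf1 was 0.01 (95% interval -0.14 to 0.16). Those of Ikzf3, Ikzf4 and Ikzf5 ran from -0.11 to 0.06 (limma adjusted p from 0.464 to 0.861). Ordered by group mean, the 4 WT groups held the 4 highest Ikzf1 levels and each overlapped its neighbour in that order. The lowest, IkL/L MDPs with GSI (8.44 ± 0.11, SD, n = 2), did not overlap the next, IkL/L CDPs with GSI (8.58 ± 0.0042, SD, n = 2). For Ikzf2 the highest group was IkL/L MDPs with DMSO (6.86 ± 0.70) and the lowest was WT CDPs with GSI (5.36 ± 0.26), and the 4 highest groups overlapped from each to the next.

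No family probe set passed the limma test between GSI and DMSO either, and 0 had an unadjusted p under 0.05. Ikzf2 was lower with GSI than with DMSO in 4 of 4 combinations, by a mean difference of -0.38 (95% interval -0.77 to 0.00; limma adjusted p = 0.446, 0.248% called; exact two-sided permutation p = 0.0417). Without both DMSO MDP arrays of replicate 1 this difference was -0.14 (limma adjusted p = 0.663).

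The Ikzf1 difference between GSI and DMSO was -0.25 in MDPs and -0.20 in CDPs of IkL/L mice, with no overlap of arrays, which held for 32.8% and 34% of all probe sets. In the WT cultures it was 0.09 in MDPs and 0.10 in CDPs with overlapping arrays, where 31.8% and 28.9% of all probe sets did not overlap. None of the 4 passed limma, and the single GSI comparisons called 0% of probe sets in WT MDPs, 0.00918% in WT CDPs, 0% in IkL/L MDPs and 0.00459% in IkL/L CDPs. Ikzf3, Ikzf4 and Ikzf5 had mean GSI differences from -0.13 to 0.10.

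**Figure D3:**
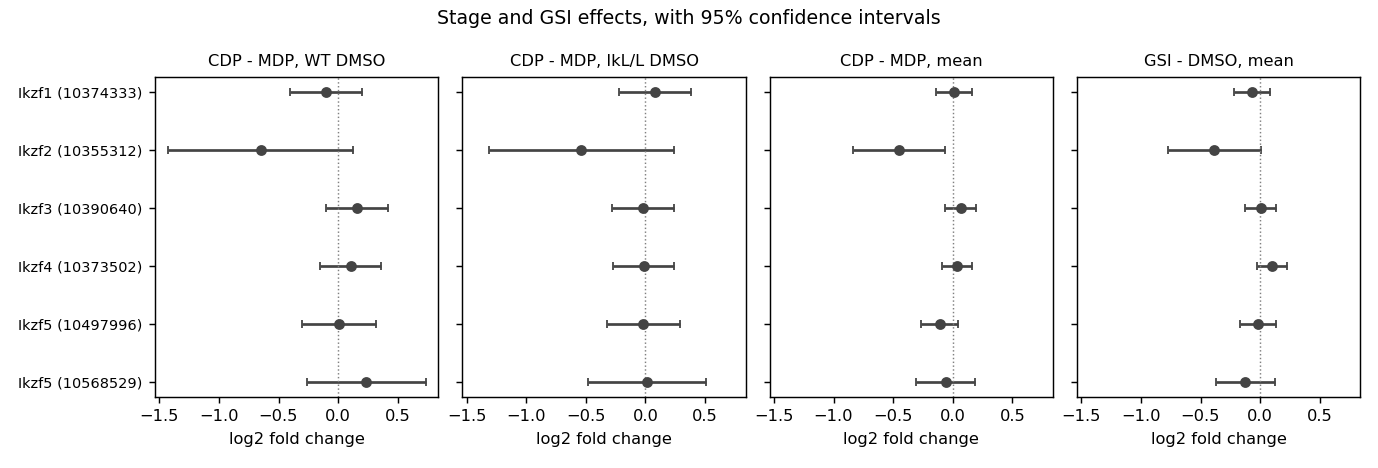
Log2 fold change (x axis) of CDP over MDP in WT and IkL/L cultures with DMSO and in the mean of 4 combinations, and of GSI over DMSO in the mean of 4 combinations, for each family probe set (rows); points are limma estimates and bars are 95% confidence intervals. No probe set passed an adjusted p of 0.05, and Ikzf2 lies farthest from 0 at -0.45 in the mean stage panel and -0.38 in the GSI panel.

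Markers of other cells also differed between these cultures. Neutrophil marker signal, the log2 of the linear signals summed over 12 genes, was 12.72 to 14.21 in WT and 14.32 to 15.08 in IkL/L. Every IkL/L array was above every WT array, and the brightest genes weigh most in such a sum. Of the 12 genes 9 were called higher and 0 lower, where 5.81% of all probe sets were called. The list median was 1.83, against -0.02 over all probe sets. Elane and Mpo had lower means in IkL/L (-0.54 and -0.93) and were not called. Mature DC markers rose for 10 of 10 genes in the mean of both stages (median 1.48), with sums of 8.58 to 9.91 in WT and 8.96 to 13.18 in IkL/L. The rise was mostly in CDPs, where the sums were 9.34 to 9.91 in WT and 12.73 to 13.18 in IkL/L. In MDPs they were 8.58 to 8.77 and 8.96 to 9.51. Limma called 8 genes in CDPs with DMSO and 9 with GSI (1.13% and 2.09% of all probe sets). In MDPs it called 1 and 0 (0.0918% and 0.11%). The part of these markers in the Ikzf1 and Ikzf2 values was not tested.

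Lymphocyte genes are of interest beside Ikzf2, which T cells express. Of 13 T and NK cell markers only Il7r, the interleukin-7 receptor chain, rose (0.86, limma adjusted p = 0.0207), and 3 had an unadjusted limma p under 0.05. The summed signal of the list was 7.75 to 8.62 in WT and 7.93 to 9.06 in IkL/L. In CDPs it reached 8.62 in WT and began at 8.85 in IkL/L, with no overlap, as for 5.34% of single probe sets. In MDPs it ran from 7.75 to 7.89 in WT and from 7.93 to 8.04 in IkL/L. These did not overlap either, as for 3.69% of single probe sets with IkL/L higher. This sum is also of linear signals, in which the brightest genes weigh most, and Il7r reached 8.19 in IkL/L. In CDPs with DMSO 6 of the 13 genes had a higher mean in IkL/L and 7 a lower one, and with GSI 13 and 0. Among the defining T cell genes Cd3d averaged 3.79 in WT and 3.86 in IkL/L and Cd3g 3.24 and 3.25, below the olfactory receptor level of 4.27, and Cd3e averaged 4.39 and 4.60. Thy1, a surface protein of T cells and of some other cells, was well above that level, with 5.24 in WT and 5.88 in IkL/L, a difference of 0.64 (1.56-fold) that missed the threshold (limma adjusted p = 0.0507). Cd5 (4.59 and 4.69) and Cd247 (4.87 and 4.80) were above it too and were not called. The part of the cells that express Il7r or Thy1 in the Ikzf2 values was not tested. None of 8 B cell markers and none of 9 pDC markers was called between genotypes by limma, with 0 and 4 at an unadjusted p under 0.05. For the 9 DC progenitor markers these counts were 0 and 5. Over all probe sets 18% had an unadjusted p under 0.05 in this comparison.

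The transcripts of proteins that work with Ikaros were read against the 5.81% of all probe sets called and the 18% with an unadjusted p under 0.05 in the mean genotype comparison. Of 19 genes of the complexes that Ikaros family proteins recruit, 1 rose and 2 fell between genotypes and 7 had an unadjusted limma p under 0.05, with a list median of -0.09. Sin3b, a scaffold of histone deacetylase complexes, rose by 0.28 (limma adjusted p = 0.0277). Mbd2, a reader of methylated DNA in the NuRD complex, fell by 0.28 (limma adjusted p = 0.00878). Ctbp1, a corepressor that Ikaros binds, fell by 0.29 (limma adjusted p = 0.0135). Chd4, the remodelling ATPase of the NuRD complex, had a difference of 0.01, and the deacetylase genes Hdac1 and Hdac2 had differences of 0.09 and -0.09, none of them called.

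Of 10 genes for enzymes that phosphorylate, dephosphorylate or degrade Ikaros proteins, 1 fell and 0 rose, and 5 had an unadjusted limma p under 0.05. The gene that fell was Cul4b, a ubiquitin ligase scaffold, at -0.41 (limma adjusted p = 0.00739). Crbn, the substrate receptor through which thalidomide analogues direct Ikzf1 and Ikzf3 to degradation, had a difference of -0.07.

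Of 26 genes known from other cells as Ikaros targets, 2 rose and 0 fell, and 4 had an unadjusted limma p under 0.05. The list median was -0.02, the same as over all probe sets. Blnk, the B cell linker protein, rose by 0.39 (limma adjusted p = 0.00797), and Uaca rose by 0.39 (limma adjusted p = 0.011). Their WT means, 4.07 and 3.97, were under the olfactory receptor level, so the sizes of both differences are uncertain. The Uaca arrays ran from 3.79 to 4.13 in WT and from 4.15 to 4.68 in IkL/L. They did not overlap, and the share of all probe sets separated in this way was not counted. Hes1 and Ptcra, Notch target genes in T cell precursors, differed by -0.04 and -0.02. Their WT means, 4.30 and 4.27, were at the olfactory receptor level, so a difference in either could be missed.

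None of 17 lymphoid transcription factor genes was called between genotypes, and 2 had an unadjusted limma p under 0.05. The largest differences were those of Bcl11a (0.45) and Zbtb46 (0.38), a marker of conventional DCs. Between stages 5 of the 17 were higher in CDP cultures (Tcf4, Bcl11a, Id2, Id3 and Zbtb46) and 0 were lower. The percentages of probe sets called that are given above for each comparison apply to these lists as well.

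The genes next to the family members were set beside them. The 2 nearest protein-coding genes on each side gave 20 neighbours, of which 19 had a probe set. Of these 2 rose and 1 fell in the mean genotype comparison, in which 5.81% of all probe sets were called.

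Fignl1 lies directly next to Ikzf1 and encodes an ATPase that acts in homologous recombination. Its signal ran from 8.27 to 9.06 in WT (median 8.69) and from 7.37 to 8.51 in IkL/L (median 8.08). It fell by 0.71 on the log2 scale (1.64-fold, limma adjusted p = 0.00871). In IkL/L CDPs the signal was 7.42 and 7.81 with DMSO and 7.37 and 7.41 with GSI. In WT CDPs it was 8.27 and 8.81 with DMSO and 8.29 and 8.96 with GSI. In IkL/L MDPs it was 8.36 and 8.51 with DMSO and 8.40 and 8.37 with GSI. In WT MDPs it was 8.57 and 8.86 with DMSO and 8.54 and 9.06 with GSI. The 2 genotypes did not overlap at either stage, which held with IkL/L lower for 5.79% of probe sets in CDPs and 2.33% in MDPs. Fignl1 also fell between stages in the mean over both genotypes and treatments (-0.54, limma adjusted p = 0.0264). On the other side of Ikzf1, 4930512M02Rik and Spata48 differed by -0.01 and -0.05, and Ddc, beyond Fignl1, by -0.05.

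Both genes on one side of Ikzf4 rose, while Ikzf4 was not called. Suox, which encodes sulfite oxidase, was higher by 0.83 (1.78-fold, limma adjusted p = 0.0283). In CDPs Suox ran from 5.14 to 5.70 in WT and from 6.41 to 7.14 in IkL/L. These did not overlap, as for 5.34% of probe sets with IkL/L higher. In MDPs it ran from 4.69 to 6.29 in WT and from 5.13 to 6.34 in IkL/L, with overlap. Rab5b, which encodes an early endosome GTPase, was higher by 0.64 (1.56-fold, limma adjusted p = 0.018), and its second probe set by 0.62 (limma adjusted p = 0.0195). The identifier of the first (10486057) lies far from that of Suox (10373515), whereas a Rab5b probe set follows Suox in identifier order. Which locus 10486057 reads is therefore uncertain. Rps26, on the other side, had no probe set with a single symbol, and Erbb3 beyond it differed by 0.07. Ikzf2, Ikzf3 and Ikzf4 each lie beside a gene for a receptor tyrosine kinase or its adaptor (Erbb4, Grb7 and Erbb3 with the gap at Rps26), and none of these 3 was called. The 4 neighbours of Ikzf2 differed by -0.14 to 0.02, none of them called, and their mean signals of 3.26 to 3.95 were under the olfactory receptor level.

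**Figure D4:**
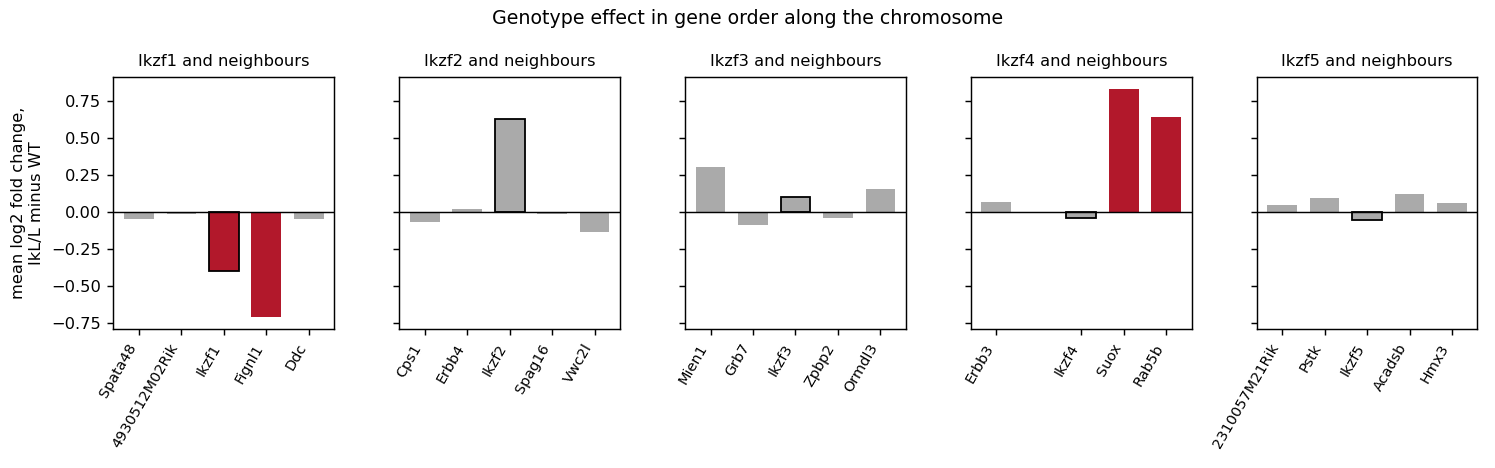
Mean log2 fold change of IkL/L over WT (y axis) for each family gene, outlined, and its 2 nearest protein-coding genes on each side in gene order (x axis, not to scale); red bars passed a limma adjusted p of 0.05 and grey bars did not, Ikzf5 is probe set 10568529, and Rps26 has no probe set and no bar. Fignl1 (-0.71) and Ikzf1 (-0.40) were lower, and Suox (0.83) and Rab5b (0.64) were higher beside an Ikzf4 value of -0.04. The Rab5b bar is probe set 10486057, whose locus is uncertain.

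The genes whose signal ran most like that of each member over the 16 arrays are given as a description, since these arrays share their groups. For Ikzf1 they were Prdm10 (r = 0.91), Ankrd13a (0.90), Nfya (0.87), Senp6 (0.86) and U2surp (0.86). Of these Prdm10 and Ankrd13a fell between genotypes (-0.34 and -0.35, limma adjusted p = 0.00269 and 0.0142). Genes picked for running like Ikzf1 on these arrays tend to share its genotype difference, so these p values are no separate evidence.

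For Ikzf2 they were Cyp2j9 (r = 0.92), Gimap6 (0.88), Rtraf (0.87), Gstt2 (0.86) and Inka1 (0.86). Of these Gstt2 rose between genotypes (0.53, limma adjusted p = 0.00878), a p value that is likewise not separate from the choice of genes. Ikzf1 and Ikzf2 themselves had r = -0.48 over the 16 arrays.

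For Ikzf3 the nearest was Tmem189 (r = 0.93), followed by Efhd2, Man1a2, Card19 and Olfr1028. For Ikzf4 it was Nipal2 (0.90), followed by Krtap5-2, Tcp11, Atp2b2 and Col15a1, and 3 of these 5 had mean signals under 4.27. For Ikzf5 by probe set 10568529 it was Olfr825 (0.80), followed by Ubd, Myo3a, Mir463 and 5530401A14Rik, all 5 with mean signals under 4.27. By probe set 10497996, whose locus is uncertain, it was Polr3f (0.80), followed by 9930012K11Rik, Prpmp5, Adam6b and Mad2l1bp.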

How the data were processed

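RNA of cells sorted again after culture was amplified (nanogram inputs) and hybridised to Affymetrix Mouse Gene 1.0 ST arrays, 1 per sample. The deposited values are log2 signals per probe set that the authors made by RMA (Affymetrix Expression Console 1.4.1, per the labels), which normalizes all arrays together, so a shift shared by all genes would be removed. They were used as deposited. Probe sets were named through GEO's platform annotation, where 1621 had several symbols and 4778 had none. A model of 8 group means over all 16 arrays (8 residual degrees of freedom) was fitted with limma 3.58.1 in R 4.3.3, with Benjamini-Hochberg adjustment over 21789 probe sets, and a probe set with adjusted p under 0.05 was called. The fit was also run on simulated data with independent arrays, which cannot show what shared mice would do to the p values. The study describes 2 mice per condition, but the labels do not say which arrays share a mouse or a pool. All family probe sets are shown. From each of the other Ikaros lists up to 4 called genes with the largest mean genotype change, or the 2 largest where none was called, are named (Chd4, Hdac1, Hdac2, Crbn, Hes1 and Ptcra were added after their values were seen), with the 5 most correlated genes and the 2 nearest genes on each side. Per gene the probe set with the highest mean stands for it, and Rab5b is given with both. The members and lists were chosen with earlier results of these data known. Alternatives were a replicate block, array weights, other scalings, filters and probe set choices, each array left out, and 2 added after the data were seen.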

Additional observations from a re-analysis of the deposited data

Results flagged for a closer look

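Ikzf1 differed between stages in opposite directions in a pair of settings. In WT cultures with DMSO both CDP arrays were below both MDP arrays (-0.0991825 on the log2 scale, or about -0.10), whereas in IkL/L cultures with GSI both CDP arrays were above both MDP arrays (0.139366, or about 0.14). The arrays did not overlap in either, as for 29% of all probe sets in WT with DMSO. The share in IkL/L with GSI was not counted. The SE of the WT difference was 0.14, and the 2 settings differ in both genotype and treatment. The difference between these 2 effects was not tested, and with 2 arrays a side such separation is common.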

How the results depend on the processing

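The call on Ikzf1 in the mean genotype comparison held under every alternative that refitted the same contrast, with log2 differences from -0.44 to -0.36 when each array was left out. The number of family probe sets called there rose from 1 to 2, through Ikzf2, under the replicate block (2; adjusted p = 0.0407), a filter on low values (2; 0.0431), eBayes with trend and robust (2; 0.0448) and without both DMSO MDP arrays of replicate 1 (2; 0.0198). It ran from 1 to 2 when single arrays were left out, with 2 without WT MDP DMSO replicate 1 or IkL/L MDP DMSO replicate 2 (0.0257 each), and it was 0 within CDPs and 0 within MDPs. The Ikzf2 difference was 0.63 in the first 4 of these and ran from 0.50 to 0.75 when single arrays were left out. Same-numbered arrays of 2 groups deviated together in 17 of 28 pairs of groups (correlation over 0.1, range -0.25 to 0.64). This held in 6 of 6 pairs within WT (0.14 to 0.59) and 3 of 6 within IkL/L (-0.18 to 0.64). Between DMSO and GSI of the same genotype and stage the correlation was 0.46 in WT MDPs and 0.59 in WT CDPs. It was -0.03 in IkL/L MDPs and 0.64 in IkL/L CDPs. The labels do not say what the numbers share, and the main fit left them out. Its p values therefore ignore any pairing that the numbers mark. With the block 1686 probe sets were called in place of 1267. By a change over 1.5-fold with no test, 1 probe set passed in the mean genotype comparison, Ikzf2 in place of Ikzf1. By the same criterion 1 probe set in place of 0 passed in MDPs with GSI (Ikzf1), 1 in CDPs with DMSO and 1 in CDPs with GSI (Ikzf2), and 1 between WT stages with DMSO (Ikzf2). The share of all probe sets over 1.5-fold was not counted, so these passes cannot be set against it.

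Differences that were not called and lay near 0 changed sign. When single arrays were left out Ikzf1 in CDPs with DMSO ran from -0.31 to 0.0083, the mean genotype difference of Ikzf5 from -0.081 to 0.0069 (10497996) and from -0.13 to 0.010 (10568529), the mean stage difference from -0.032 to 0.047 (Ikzf1), from -0.0043 to 0.076 (Ikzf4) and from -0.13 to 0.0090 (Ikzf5, 10568529), and the mean GSI difference from -0.033 to 0.044 (Ikzf3) and from -0.063 to 0.024 (Ikzf5, 10497996). The mean GSI difference of Ikzf3 was -0.012 with arrays centred on the median, -0.019 with quantile normalization and -0.042 without both DMSO MDP arrays of replicate 1. That of Ikzf5 (10497996) was 0.0021 with quantile normalization, and the mean stage difference of Ikzf1 was -0.045 without both DMSO MDP arrays of replicate 1. The cause was not tested.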
